A study of Mus musculus with 16 samples.

Results

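The 60 genes described here make, break down, sense and anchor the second messenger cyclic AMP. They are all the non-control genes whose name on the array begins with Adcy, Pde followed by a digit, Prkar, Prkac or Akap, out of 36870 named genes, and they are read by 141 probes of 56605. One of them, Akap14, was too dim to be tested, so 59 of the 36711 tested genes were members. The set holds 10 adenylyl cyclases, the cyclase-activating peptide PACAP and its receptor, 24 cyclic nucleotide phosphodiesterases, 6 subunits of protein kinase A (PKA) and 16 A-kinase anchoring proteins. It also holds 2 genes that share only the name: Pde4dip, which encodes a scaffold protein of the Golgi and centrosome, and Pde12, an enzyme that acts on other substrates than cyclic nucleotides. At least 1 probe was well above background on all 16 arrays for 47 of the 60 members, and no probe was well above background on any array for 3 members (Akap3, Akap14 and Pde6b).

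RNA was taken from the colon of 16 conventional pups of the outbred RjOrl:SWISS stock at weaning, and each RNA was hybridised to 1 one-colour (Cy3) Agilent array. The 8 pups of the C-section group (CSD, labelled HYS) were delivered by hysterectomy and raised by foster mothers that had delivered vaginally, and the 8 pups of the vaginal delivery group (VD) were born vaginally and exchanged between mothers, so that pups of both groups were reared by a dam other than their own. CSD pups came from mothers 3 and 4, with 4 pups each (2 females and 2 males), and VD pups came from mother 5 (2 females and 3 males) and mother 6 (3 males). Delivery mode therefore varied only between 4 litters, 2 per mode, and a litter of an outbred stock can differ from another in its alleles. Pups were the samples of every fit except that on litter means, so that a p-value from the other fits measures the spread between these pups. Each of the 2 slides held 4 CSD and 4 VD arrays. Between 58.7% (VD pup 11) and 64.9% (VD pup 4) of the non-control spots lay well above background, and 0 spots were saturated. In whole colon, fewer cells of a type and less RNA per cell cannot be told apart.

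Cyclic AMP is made from ATP by adenylyl cyclases, most of which sit in the plasma membrane and are switched on or off by G proteins of hormone and neurotransmitter receptors. It binds the regulatory subunits of PKA and so frees the catalytic subunits, which phosphorylate ion channels, transporters and transcription factors such as CREB. Phosphodiesterases end the signal, and A-kinase anchoring proteins hold PKA, phosphodiesterases and substrates together at 1 place in the cell. In the colon the pathway is known for driving chloride and fluid secretion by the epithelium, for relaxing smooth muscle and for restraining immune cells.

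The value of a gene rests on its 60-base probes, averaged where there are several. The probes that carry the results are shown here by the first 30 bases of each, 5′ to 3′, in lower case throughout. Positions (mm9) were taken as the scanner files list them. No annotation of that build was used here, so whether a probe lies in a coding exon or an untranslated region is given only as far as the named transcript. The first 4 belong to the 3 phosphodiesterases that a later paragraph sets side by side, the next 2 to the same transcript of Pde6g, of which only the second changed, and the last 3 to PKA's anchoring and regulatory genes.
Pde7a, transcript NM_008802, chr3:19129696-19129755, minus strand: aaagtaccatttgggtgtgagtccactttg
Pde7a, transcript NM_001122759, chr3:19136449-19136508, minus strand: atttagtcttcatggattgattgagtactt
Pde1b, transcript NM_008800, chr15:103360424-103360483, plus strand: atgctcttggtctcccaggcccctgctata
Pde4a, transcript NM_183408, chr9:21017591-21017650, plus strand: ttgatcaattggtccgtcgattgacaatca
Pde6g, transcript NM_012065, chr11:120308955-120309014, minus strand: atccgttataacaaccttcccaacatactc
Pde6g, transcript NM_012065, chr11:120309392-120309451, minus strand: ctagagctgcacgagctggcccagtatggc
Prkar2a, transcript NM_008924, chr9:108651764-108651823, plus strand: tgagcttttctttgagcagtttagtaagca
Akap9, transcript NM_194462, chr5:3957742-3960112, plus strand: aggaggacctccaagctcagatttcttttt
Akap7, transcript NM_018747, chr10:25003766-25003825, minus strand: cccaaagagaagcaaagaagaagaagaaga

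The main question was whether birth by C-section went with another level of these genes in the colon. Delivery mode was compared with limma (sex as a second term, the mother as a random effect), and a gene was called where its p, adjusted over all tested genes by Benjamini-Hochberg, was under 0.05. Of the 59 members, 1 rose in CSD pups (Pde7a) and 1 fell (Pde1b), which is 3.39% of the members against 1.25% of all tested genes. With so few litters this model can understate the litter correlation: on data simulated without litter effects it estimated one below 0 and made more false calls than its limit allows, so that adjusted p-values here may be too small. In the pups' own data the estimate was 0.0152, and without the mother 3 members (Pde4a was added) and 587 of all tested genes were called, with an adjusted p of 0.00327 for Pde7a and 0.0189 for Pde1b. At an unadjusted p under 0.05 there were 14 members, 9 higher and 5 lower in CSD pups (23.7%, against 14.5% of all tested genes). The median log2 difference of the members, CSD minus VD, was 0.0133 and their median absolute difference was 0.0358, against 0.0029 and 0.0508 over all tested genes. The difference, as fitted with sex in the model, was above 0 for 37 members and below 0 for 22 (62.7% above, against 51.7% of all tested genes). The pups of both groups were fully separated for 1 member above (1.69%, against 0.293% of genes with a value on every array) and 1 member below (1.69%, against 0.2%), and these were again Pde7a and Pde1b. Both CSD litter means lay above both VD litter means for 16 members (27.1%, against 21.7%) and below for 8 (13.6%, against 20.3%). The litter of mother 6, the 3 VD males, bore on these counts: without it 9 members (5 higher and 4 lower) and 2265 of all tested genes were called, the members being Adcy4, Akap7, Akap9, Pde1b, Pde4a, Pde4b, Pde5a, Pde6a and Pde7a.

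**Figure D1:**
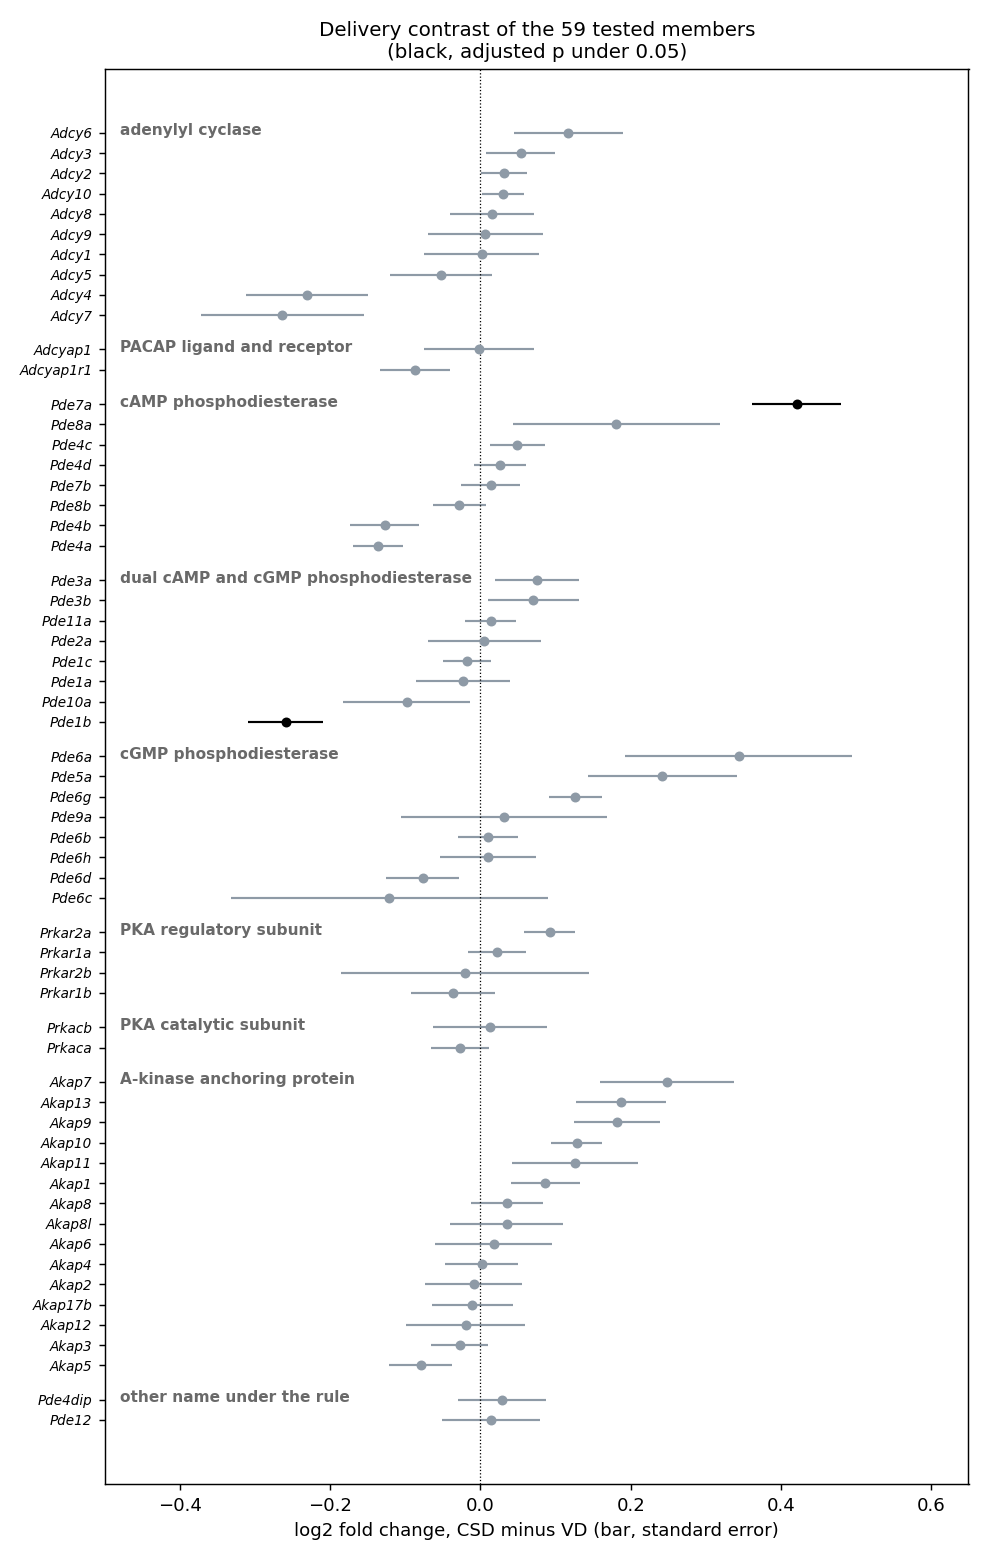
Log2 fold change (horizontal axis, CSD minus VD) of each of the 59 tested members, grouped by role, with its standard error as a bar; black points have an adjusted p under 0.05. Pde7a (0.42) and Pde1b (-0.26) are the black points, and the PKA subunits lie near 0.

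None of the 10 adenylyl cyclases or the 2 PACAP genes was called. Differences of the cyclases ran from -0.26 to 0.12 on the log2 scale (CSD minus VD, median 0.01), with 7 above 0 and 3 below, and 2 had an unadjusted p under 0.05, both lower. Adcy4, a cyclase stimulated by Gs and G protein beta-gamma subunits, had log2 intensities of 7.62, 7.94 and 8.12 (lowest, median and highest) in the 8 CSD pups and of 7.89, 8.15 and 8.43 in the 8 VD pups. The groups overlapped, with 3 CSD pups below every VD pup (-0.23 ± 0.08 SE, limma adjusted p = 0.179). Adcy7, the cyclase best known from blood cells, ran from 9.50 to 10.29 in CSD pups (median 9.90) and from 10.04 to 10.65 in VD pups (median 10.20). Here 6 CSD pups lay below every VD pup, while CSD pups 6 and 9 reached into the VD range (-0.26 ± 0.11 SE, limma adjusted p = 0.262). The Adcy7 spread within groups was wide, and 9.31% of all tested genes had one at least as large. Adcy6, the calcium-inhibited cyclase of many epithelia, gave 9.50 to 9.89 in CSD and 9.32 to 9.82 in VD pups, ranges that overlapped for the most part (0.12 ± 0.07 SE, limma adjusted p = 0.501), and the difference was -0.0235 without the litter of mother 5. Adcy5 and Adcy9 were bright on every array and differed by -0.05 ± 0.07 and 0.01 ± 0.08 (SE). The neuropeptide gene Adcyap1 was dim, and its receptor gene Adcyap1r1 differed by -0.09 ± 0.05 (SE, limma adjusted p = 0.421).

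The 8 phosphodiesterases that act on cyclic AMP alone (families 4, 7 and 8) held the largest change of the set. Pde7a, which encodes a high-affinity enzyme found in lymphocytes and many other cells, had log2 intensities of 9.79, 9.85 and 10.10 (lowest, median and highest) in CSD pups and of 9.31, 9.47 and 9.62 in VD pups. Every CSD pup was above every VD pup. The difference was 0.42 ± 0.06 (SE, log2), or 1.34-fold, with a limma adjusted p of 0.00451 and an exact two-sided permutation p of 0.000155, the smallest that 12870 assignments of the pups can give. That permutation test leaves litter and sex out of account. The 4 litter means were 9.86 and 9.91 (mothers 3 and 4) against 9.49 and 9.42 (mothers 5 and 6). Within slide 1 the difference was 0.43 and within slide 2 it was 0.42. With litter means in place of pups it was 0.43, and its limma adjusted p rose to 0.236, with only 2 values per group. Pde7b, the related gene of the same family, was dim and differed by 0.01 ± 0.04 (SE).

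The family 4 genes, whose enzymes are the targets of rolipram-like anti-inflammatory drugs, did not share a direction. Pde4a had values of 7.54, 7.69 and 7.77 in CSD pups and of 7.76, 7.82 and 7.89 in VD pups. Only CSD pup 9 reached the VD range, and 7 CSD pups lay below every VD pup. The difference of -0.14 ± 0.03 (SE) missed the threshold (limma adjusted p = 0.0592). It passed under 4 of the 37 alternative settings, among them the fit without the mother (adjusted p = 0.0471). The Pde4a difference was -0.19 within slide 1 and -0.08 within slide 2 (limma adjusted p = 0.479 and 0.583). Pde4b, the main family 4 gene of leukocytes, ran from 6.50 to 6.77 in CSD pups (median 6.56) and from 6.58 to 6.83 in VD pups (median 6.70). The groups overlapped, with 5 CSD pups below every VD pup (-0.13 ± 0.05 SE, limma adjusted p = 0.189). The difference ran from -0.375 with the scanner software's corrected intensity to -0.05 without the litter of mother 5. Of the 6 Pde4b probes averaged, 2 were well above background on all 16 arrays, and the others on 1 array at most. Fitted singly, those 2 probes gave -0.26 ± 0.07 and -0.31 ± 0.11 (SE, limma adjusted p = 0.0611 and 0.159). Pde4c and Pde4d differed by 0.05 ± 0.04 and 0.03 ± 0.03 (SE), with limma adjusted p-values of 0.592 and 0.793. Pde8a was not well above background on any VD array and on only 1 CSD array, that of pup 7, where it read 7.27 against 6.17 or less in the other CSD pups and 6.24 or less in the VD pups.

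**Figure D2:**
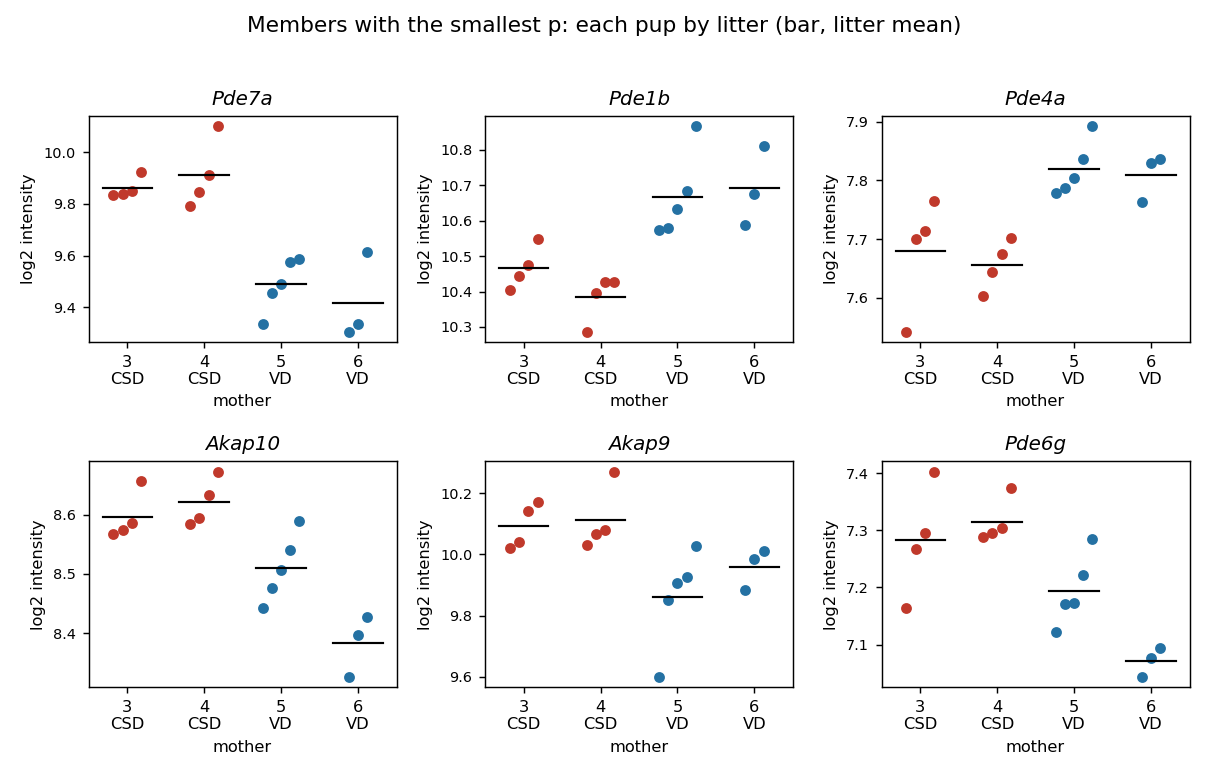
Log2 intensity (vertical axes) of each pup for 6 members, by litter (horizontal axes, mothers 3 and 4 CSD in red, mothers 5 and 6 VD in blue), with a bar at the litter mean. Every CSD point lies above every VD point for Pde7a (9.79 or more against 9.62 or less) and below for Pde1b, and the groups overlap for the other genes.

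Among the 8 phosphodiesterases that act on both cyclic AMP and cyclic GMP (families 1, 2, 3, 10 and 11), 4 had a fitted difference above 0 and 4 below, and only Pde1b was called. Pde1b is switched on by calcium and calmodulin. It had log2 intensities of 10.29, 10.43 and 10.55 in CSD pups and of 10.57, 10.65 and 10.87 in VD pups. The groups did not overlap, but CSD pup 5 and VD pup 10 lay side by side at 10.55 and 10.57. The difference was -0.26 ± 0.05 (SE), a 1.197-fold lower level in CSD pups (limma adjusted p = 0.0242, exact two-sided permutation p = 0.000155). It was -0.21 within slide 1 and -0.31 within slide 2. The call was less steady than that of Pde7a: it was lost in 12 of 37 alternative settings, including the deposited matrix (adjusted p = 0.0566) and the fit without VD pup 4, the highest pup (adjusted p = 0.0647). It was also lost without the litter of mother 3, 4 or 5 (adjusted p = 0.0519, 0.12 and 0.146). The other calmodulin-dependent genes, Pde1a and Pde1c, differed by -0.02 ± 0.06 and -0.02 ± 0.03 (SE). Of the 4 Pde1c probes averaged, only 1 was well above background on all 16 arrays, and fitted singly it gave 0.09 ± 0.09 (SE, limma adjusted p = 0.704). The cyclic GMP-inhibited genes Pde3a and Pde3b gave 0.08 ± 0.06 and 0.07 ± 0.06 (SE), and Pde2a, which cyclic GMP stimulates, gave 0.01 ± 0.08 (SE). Pde10a, best known from the striatum, differed by -0.10 ± 0.08 (SE), with VD pup 11 at 7.02 and no other VD pup above 6.51.

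The 8 genes of the cyclic GMP phosphodiesterases (families 5, 6 and 9) are listed here because the rule takes them by name, and 6 of them had a fitted difference above 0, with 0 called. Pde5a, the sildenafil target of smooth muscle, ran from 7.91 to 8.36 in CSD pups (median 8.16) and from 7.47 to 8.20 in VD pups (median 7.89). The groups overlapped (0.24 ± 0.10 SE, limma adjusted p = 0.26), and the difference was 0.04 within slide 1, 0.44 within slide 2 and 0.08 without the litter of mother 5. Pde6a, a catalytic subunit known from rod photoreceptors, gave 7.15, 7.35 and 7.66 in CSD pups and 6.54, 6.96 and 7.77 in VD pups. VD pup 8, of mother 6, was the highest of all 16 (0.34 ± 0.15 SE, limma adjusted p = 0.303), and the difference was 0.51 without that litter (adjusted p = 0.00697) but 0.03 without the litter of mother 5 (adjusted p = 0.97). Pde6g, the inhibitory subunit of the rod enzyme, gave 7.16, 7.29 and 7.40 in CSD and 7.04, 7.15 and 7.29 in VD pups. Of the CSD pups, 6 were above every VD pup (0.13 ± 0.04 SE, limma adjusted p = 0.0921). Pde9a, the high-affinity cyclic GMP enzyme, differed by 0.03 ± 0.14 (SE).

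The 6 genes of PKA itself showed no called difference. The catalytic subunit genes Prkaca and Prkacb differed by -0.03 ± 0.04 and 0.01 ± 0.08 (SE), with limma adjusted p-values of 0.809 and 0.96. Prkaca ran from 9.55 to 9.78 in CSD pups and from 9.61 to 9.78 in VD pups, and Prkacb from 11.72 to 12.06 and from 11.62 to 12.16, so that the groups covered nearly the same range. Prkar2a, a type II regulatory subunit held by most anchoring proteins, was the only PKA gene with an unadjusted p under 0.05 (0.0156). Its values were 10.65, 10.75 and 10.87 in CSD pups and 10.57, 10.65 and 10.75 in VD pups, with 4 CSD pups above every VD pup (0.09 ± 0.03 SE, limma adjusted p = 0.202). Over the alternative settings the difference ran from 0.0394 within slide 1 to 0.232 with the brightest probe. Prkar1a, the regulatory subunit that every cell type is thought to need, differed by 0.02 ± 0.04 (SE), Prkar1b by -0.04 ± 0.06 (SE) and Prkar2b by -0.02 ± 0.17 (SE).

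Of the 15 anchoring protein genes tested, 10 had a fitted difference above 0 and 5 below (median 0.03 on the log2 scale). None was called, and the 4 with an unadjusted p under 0.05 (Akap7, Akap9, Akap10 and Akap13) were all higher. Akap10, whose protein binds both types of regulatory subunit, gave 8.57, 8.59 and 8.67 in CSD pups and 8.33, 8.46 and 8.59 in VD pups. The CSD pups were close together, and 4 of them were above every VD pup (0.13 ± 0.03 SE, limma adjusted p = 0.0774). Akap9, the large scaffold of the Golgi and centrosome, gave 10.02, 10.07 and 10.27 in CSD pups and 9.60, 9.92 and 10.03 in VD pups. Here 7 CSD pups were above every VD pup and VD pup 11 lay lowest (0.18 ± 0.06 SE, limma adjusted p = 0.134). Akap13, a large scaffold protein, gave 10.25, 10.42 and 10.58 in CSD and 10.06, 10.21 and 10.43 in VD pups, with 3 CSD pups above every VD pup (0.19 ± 0.06 SE, limma adjusted p = 0.141). Its difference was 0.085 within slide 1, 0.293 within slide 2 and 0.2855 without the litter of mother 5. Akap1 of the mitochondrial surface and Akap12 (gravin) of the cell cortex gave 0.09 ± 0.05 and -0.02 ± 0.08 (SE).

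Since genes were averages of their probes, each of the 139 retained member probes was also tested on its own, a setting added after the data were seen. With p-values adjusted over 56366 probes, 7 member probes were called, 5 higher and 2 lower in CSD pups (5.04%, against 1.74% of all probes). Both Pde7a probes were among them, at 0.48 ± 0.09 (transcript NM_008802) and 0.37 ± 0.05 (transcript NM_001122759; SE, limma adjusted p = 0.0144 and 0.00232). The single Pde1b probe was another. Pde4a had 3 probes. The probe at chr9:21017591-21017650 fell by 0.23 (limma adjusted p = 0.0248), a neighbour in the same transcript gave -0.17 (adjusted p = 0.145), and a dim probe of another transcript gave 0.00. For Pde6g the 2 probes of 1 transcript disagreed: the one at chr11:120309392-120309451 rose by 0.27 in CSD pups (limma adjusted p = 0.00413), with every CSD pup above every VD pup, and the other gave -0.02. In Prkar2a, 1 of 4 probes was called (0.23 ± 0.05 SE, limma adjusted p = 0.0325), and the others lay between -0.05 and 0.11. In Akap9, 1 of 4 probes was called (0.30 ± 0.07 SE, limma adjusted p = 0.0458). This probe of 60 bases covers 2371 bases of the genome, so that it bridges a splice junction.

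Akap7, a small membrane anchoring protein near calcium channels and transporters, was named after its values were seen because its probes differed most. Its gene average ran from 12.83 to 13.25 in CSD pups (median 13.02) and from 12.36 to 12.99 in VD pups (median 12.78), with 4 CSD pups above every VD pup (0.25 ± 0.09 SE, limma adjusted p = 0.191). The difference was 0.37 without the litter of mother 6 (adjusted p = 0.00616) and 0.03 without that of mother 5 (adjusted p = 0.894). The probe at chr10:25003766-25003825 gave 0.71 ± 0.23, and the others gave 0.12 ± 0.04 and -0.09 ± 0.05 (SE). Purines make up 80% of that probe, as can be seen in its repeated gaa in the sequence shown, against a median of 50% over all probes, and 0.0618% of probes hold as high a share. Its part in the Akap7 difference was not tested. With the brightest probe of each gene in place of the average, 5 members were called (Pde1b, Pde4a, Pde6g, Pde7a and Prkar2a), as were 506 of all tested genes (1.38%). Akap10 then gave -0.03 in place of 0.13 and Akap13 -0.07 in place of 0.19.

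**Figure D3:**
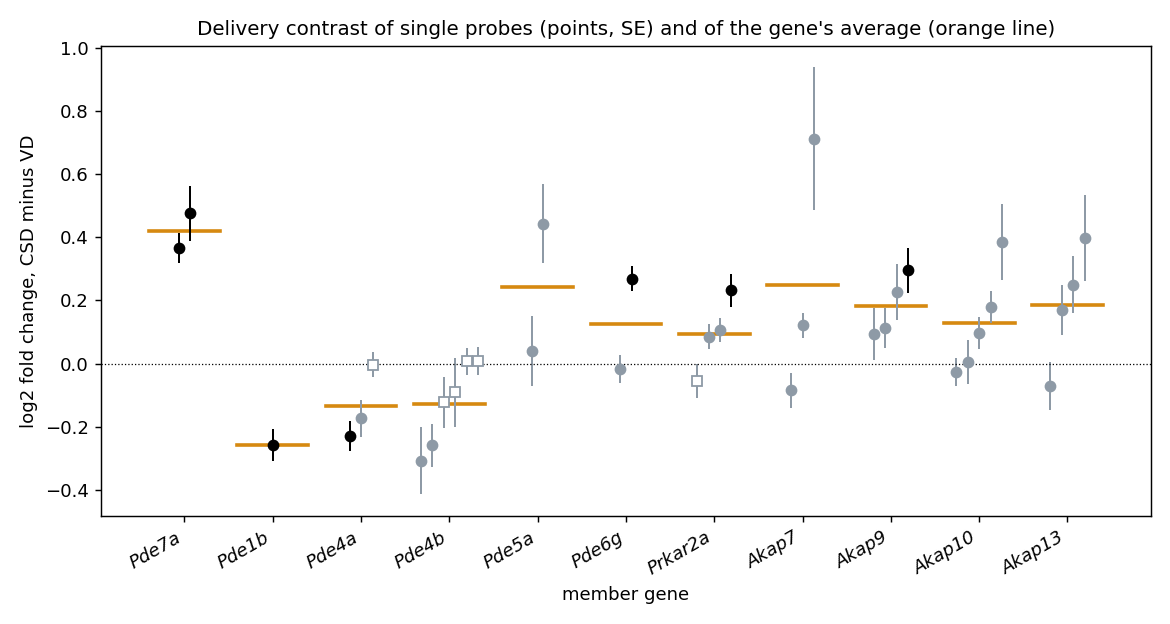
Log2 fold change (vertical axis, CSD minus VD) with its standard error for each retained probe of 11 members; black marks are called, open squares are probes not well above background on all 16 arrays, and the orange line is the value of the gene's average. Both Pde7a probes are higher (0.37 and 0.48), while probes of Pde6g, Akap7, Akap10 and Akap13 spread on both sides of 0.

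Sex and litter were compared in the same pups. Between 6 females and 10 males 0 members were called by limma (against 0.0599% of tested genes), and 4 had an unadjusted p under 0.05 (6.78%, against 6.45%). For the delivery by sex interaction 0 members were called (against 0.00272%) and 3 had an unadjusted p under 0.05 (5.08%, against 4.72%). Within the CSD group, 0 members differed between mothers 4 and 3 by limma (against 0.0872%), with 3 at an unadjusted p under 0.05 (5.08%, against 7.68%). Within the VD group, 0 members were called between mothers 6 and 5 (against 0.874%), and 11 had an unadjusted p under 0.05 (18.6%, against 11.5%). The median absolute log2 difference of the members was 0.0756 between the VD litters and 0.0658 between the CSD litters, each comparison of fewer pups, against 0.0358 between delivery modes. Over all tested genes the same medians were 0.0638, 0.0536 and 0.0508. Akap7 had the smallest p of the VD litter comparison, at 0.38 higher in the pups of mother 6 (limma adjusted p = 0.0708), and with the slide as a further term Akap7 and Pde6c were called there, among 375 of all tested genes.

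A few members varied far more between pups than by delivery, and they were named after their values were seen. Pde6c, the cone photoreceptor subunit, was among the 2.74% of tested genes with the widest spread within groups. Its median was 6.53 in CSD and 6.74 in VD pups, the highest CSD values were 7.66 and 7.18 in pups 3 and 5, both females of mother 3, and the pups of mother 6 (7.01 to 7.43) lay above those of mother 5 (6.27 to 6.88). It was well above background on only 5 CSD and 7 VD arrays. Prkar2b, the regulatory subunit of brain and fat, ran from 10.96 to 11.78 in CSD and from 10.82 to 11.88 in VD pups, with litter means from 11.19 (mother 6) to 11.69 (mother 5). Pde9a ran from 11.75 to 12.35 and from 11.60 to 12.53, and its lowest litter mean, 11.79, was again that of mother 6. For neither gene did delivery separate the pups.

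**Figure D4:**
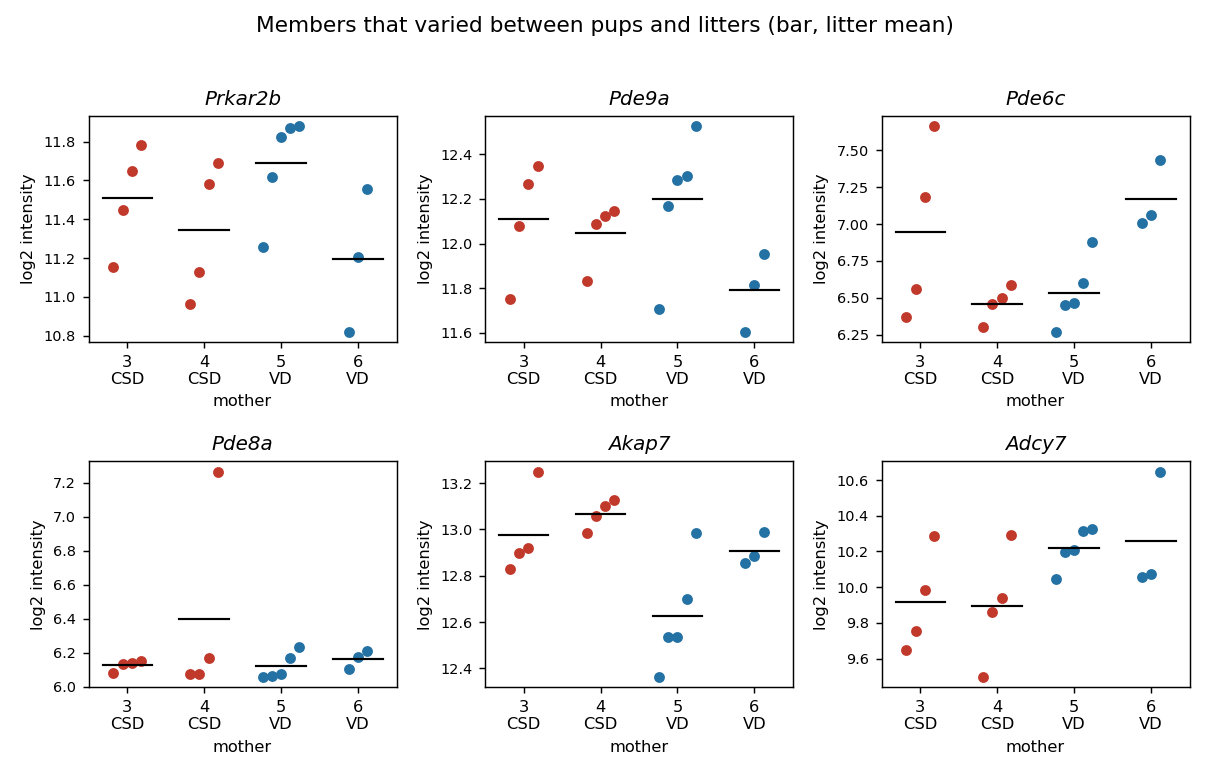
Log2 intensity (vertical axes) of each pup for 6 members by litter (horizontal axes, CSD in red and VD in blue), with a bar at the litter mean. The single high Pde8a value is CSD pup 7 (7.27), and the pups of mother 6 lie high for Pde6c and low for Pde9a.

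The rest of the pathway was followed in 96 further genes from 7 lists, all tested. Their median log2 difference was -0.02, with 42 above 0 and 54 below. Only Crebbp was called (1.04%, against 1.25% of all tested genes), and 18 genes, 7 higher and 11 lower, had an unadjusted p under 0.05 (18.8%, against 14.5%). Crebbp, the coactivator that binds phosphorylated CREB, gave 9.90, 10.13 and 10.29 in CSD and 9.78, 9.86 and 10.03 in VD pups (0.22 ± 0.05 SE, limma adjusted p = 0.0344), with 7 CSD pups above every VD pup. With its brightest probe alone the difference was 0.07 (adjusted p = 0.598), and leaving out any one of CSD pups 2, 3, 6, 7 and 9, VD pup 4 or the litters of mothers 4 and 5 ended the call, with an adjusted p between 0.053 and 0.224. It was called in 23 of 37 alternative settings, and not with litter means (adjusted p = 0.269), males only (0.345), slide 1 (0.636), slide 2 (0.207) or the replicate block (0.375). Of the 13 CREB factors and coactivators 9 were higher and 4 lower.

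Upstream of the cyclases, none of the 7 G protein alpha subunit genes and none of the 30 receptor genes was called. Gnai3 and Gnai1, both inhibitors of cyclases, differed by 0.12 ± 0.04 and -0.16 ± 0.08 (SE, limma adjusted p = 0.187 and 0.346). The adenosine receptor genes Adora2a and Adora2b, which raise cyclic AMP, differed by -0.37 ± 0.12 and -0.14 ± 0.05 (SE, limma adjusted p = 0.13 and 0.143). Each was called in 1 alternative setting (lowest limma adjusted p = 0.0244 and 0.0303). Adora2b ran from -0.501 with the scanner software's corrected intensity, quantile normalized, to -0.075 without the litter of mother 6. Adora2a gave 7.08, 7.603 and 7.90 in CSD and 7.78, 7.99 and 8.61 in VD pups, and 6 CSD pups lay below every VD pup. Downstream, the PKA inhibitor genes Pkia, Pkib and Pkig had fitted differences of -0.12, -0.10 and -0.01, with 0 of the 3 called and Pkib at 0.04 with its brightest probe. Among the genes listed as other targets of cyclic nucleotides the channel genes Hcn2 and Cnga1 had the smallest p, at 0.25 ± 0.12 and -0.09 ± 0.05 (SE, limma adjusted p = 0.355 and 0.418). Of 15 genes with CREB-driven promoters 8 were higher and 7 lower, with 0 called. The immediate-early gene Nr4a1 gave 10.47, 10.59 and 11.27 in CSD and 10.84, 11.79 and 13.16 in VD pups, the widest difference of the pathway but with a wide spread in VD pups (-0.97 ± 0.28 SE, limma adjusted p = 0.0995). The Nr4a1 difference ran from -1.19 without the litter of mother 6 to -0.642 without that of mother 5. It was called in 3 of 37 alternative settings. Junb gave -0.18 ± 0.07 (SE, limma adjusted p = 0.198). Among 15 genes of PKA substrates and ion transport, 5 were higher and 10 lower, and 0 were called. Slc9a3, the sodium-hydrogen exchanger that PKA inhibits in the colon, gave 8.33, 8.92 and 9.69 in CSD and 7.32, 7.83 and 9.39 in VD pups (0.88 ± 0.27 SE, limma adjusted p = 0.126). Of the VD pups, 6 lay below every CSD pup, and VD pups 4 and 6 lay within the CSD range. The difference was 1.59 within slide 1 and 0.17 within slide 2. It was 1.073 without the litter of mother 6 (limma adjusted p = 0.0276) and 0.5922 without that of mother 5 (adjusted p = 0.384). The phosphatase inhibitor gene Ppp1r1b gave -0.10 ± 0.04 (SE, limma adjusted p = 0.283).

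**Figure D5:**
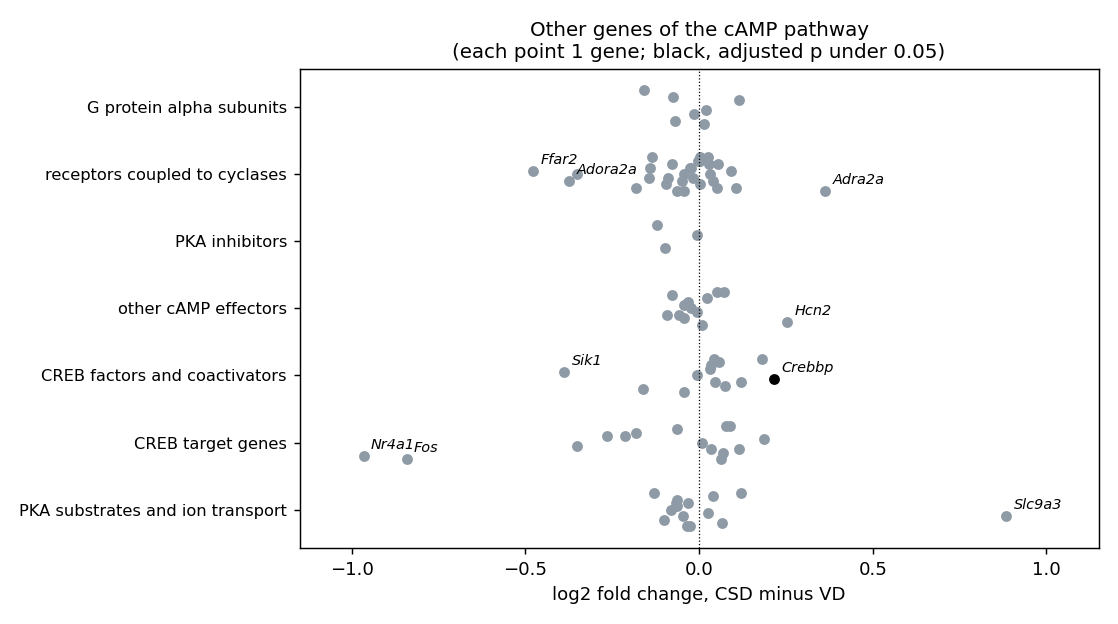
Log2 fold change (horizontal axis, CSD minus VD) of 96 other genes of the cAMP pathway, by list (vertical axis, points offset for legibility); black marks an adjusted p under 0.05. Crebbp (0.22) is the only black point, and Nr4a1 (-0.97) and Slc9a3 (0.88) lie farthest from 0.

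Markers of other cell types were read beside these results, and 0 were called in any list, so that the counts below give only the sign of each fitted difference. The samples carried the markers of colon: all 10 colonocyte genes were well above background on every array, and 2 of 8 small intestinal genes were. The 10 colonocyte genes were all higher in CSD pups (median log2 difference 0.18), as were 7 of 8 goblet cell genes (0.17), 7 of 8 enteric neuron genes (0.0644) and 5 of 5 mast cell genes (0.42). Lower in CSD pups were 6 of 7 B and plasma cell genes (-0.60), 6 of 6 T cell genes (-0.30), 5 of 5 erythrocyte genes (-0.339), 5 of 6 macrophage genes (-0.16), 5 of 5 endothelial genes (-0.15) and 6 of 8 smooth muscle genes (-0.12). The centred mean of the B and plasma cell genes ran from -0.87 (CSD pup 2) to 0.25 in CSD pups and from -0.045 to 0.68 (VD pup 11) in VD pups. CSD pups 2, 3 and 8, the lowest for these genes, were also the lowest for Adcy7 (9.50, 9.65 and 9.76), while for Pde7a they lay at 9.84 to 9.92, within the other CSD pups. The part of cell composition in the Adcy4, Adcy7, Pde4a, Pde4b, Pde1b and Pde7a differences was not tested. Adipocyte genes, all 6 lower in CSD pups (-0.24), spread widely from -1.87 in CSD pup 1 to 1.46 in VD pup 6.

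CREB binds the cAMP response element TGACGTCA, and genes of the pathway can carry it themselves. Promoters of 49 of the 60 members (93 promoters of 300 bases, RefSeq, GRCm38.p6, both strands searched) were read for it. It stood in 2 of 93 (2.15%), against 1.79% of all 32851 promoters in the table, and both were overlapping promoters of Prkar1a, with the element 49 bases before 1 annotated start. That stretch is shown with the element in capitals:
Prkar1a, chr11:109650889-109650918, plus strand: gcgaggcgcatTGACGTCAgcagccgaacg
The shorter TGACG, which every full element contains, stood in 20 member promoters (21.5%, against 20.8% of all). It was in 1 of 3 promoters of Pde4a and in the promoter of Prkar2a, and in none of the 3 promoters of Pde1b. The promoter of Pde7a was not analysed here. Prkar1a itself differed by less than the spread between pups, as given above.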

How the data were processed

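Each array's scanner file, as deposited, holds a mean intensity and a median background intensity per spot, and the authors' matrix holds log2 values for 27036 genes made, per their methods, in limma 3.38 (correction of a kind not named, quantile normalization, a filter on dim probes, averaging by gene). From the intensities, normexp correction (offset 50), log2, removal of control and outlier-marked spots, quantile normalization and averaging by probe and gene were done in limma 3.58.1 (R 4.3.3). A probe was retained when 4 or more arrays read it above their lowest 5% of signals (56366 probes). The offset compresses the folds of dim genes. The litter correlation of the model was 0.015. On data simulated without litter effects the fits recovered the known changes, each larger than the difference of any member. Recovery of changes as small as the members' was not tested. False calls exceeded the limit with the mother in the model and were close to it without the mother. Since no litter effect was simulated, these shares cannot tell how either fit behaves where litters differ. In the deposited data, leaving the mother out raised the calls from 460 to 587 genes. Genes carry the array's names, 59 of 60 member symbols stand in the RefSeq table, and sequences are those of the scanner output or RefSeq.

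The members, lists and tests were chosen with earlier results of these data known. Named genes were the called members, the 3 members per role with the smallest p among those with signal well above background throughout a group, and from each pathway list the called genes or else the 2 with the smallest p. Other members named to describe a role were chosen after their values were seen, and keeping outlier-marked spots, like the test of single probes, was an alternative added then.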

Additional observations from a re-analysis of the deposited data

Results flagged for a closer look

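In groups of 8 pups, the highest or lowest value of 54 genes named in the text was compared with its nearest neighbour, and 14 of 108 groups had a pup set apart by more than Dixon's 95% limit on the share of the group's range. Chance alone sets about 1 in 20 groups apart where values are normal and genes are picked without regard to them. Some of these genes were named after their values were seen, and the share over all tested genes was not computed. The count of 14 can therefore not be set against that rate. Of the called members, only Pde7a had such a pup: CSD pup 7, the highest, at 10.1, with the next at 9.92, and Pde7a stayed called without it. CSD pup 7 also gave the widest gap, in the dim gene Pde8a, at 7.27 against 6.17. Among the other phosphodiesterases, Pde4b was highest in CSD pup 1 (6.765), Pde3a in VD pup 9 (7.72) and Pde10a in VD pup 11 (7.02). VD pup 11, whose array had the smallest share of spots well above background, was also lowest for Akap9 (9.60). Adcy7 was highest in VD pup 6 (10.65), Prkar1b in VD pup 4 (8.14), Pkib in VD pup 4 (8.57), Cnga1 in VD pup 6 (7.44) and Hcn2 in CSD pup 8 (15.29), and Pkia was lowest in VD pup 9 (7.40). The dim genes Adcyap1 and Pde7b were highest in CSD pup 1 (6.77) and lowest in VD pup 5 (6.13).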

How the results depend on the processing

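Pde7a kept its direction in all 37 alternatives and stayed called in 32 of them, and Pde1b kept its direction in 37 and stayed called in 25. For Pde7a the adjusted p was 0.132 with males only, 0.422 and 0.168 within slides 1 and 2, 0.236 with litter means and 0.267 with the replicate block, settings with fewer samples or, for the block, comparisons only within a shared number. The 2 called members became 1 (Pde7a) with the scanner software's corrected intensity, quantile normalized or minus the 75th percentile, and with the deposited matrix. They became 5 with the brightest probe, 4 without sex, 5 at an adjusted p under 0.1, and 0 with litter means, males only, either slide alone or the replicate block. In the settings with 0 calls, limma gave between 5 and 12 members an unadjusted p under 0.05. The share of all tested genes under that limit was not computed for those settings, so these counts have no background to be read against. Leaving out 1 pup or litter gave 1 to 9, with the highest count without the litter of mother 6. Over all genes, the 460 calls became 243 with an offset of 16, 177 and 169 with the corrected intensity (quantile, 75th percentile), 170 with the deposited matrix, 992 without sex, 1126 at an adjusted p under 0.1, 11 on slide 1, and 0 with litter means, males only, slide 2 or the replicate block, and 138 to 2265 when 1 pup or litter was left out. Between mothers 6 and 5, the slide as a fixed effect gave 2 members in place of 0 and 375 genes in place of 321. The causes were not tested.

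The number in the pups' titles is shared by 5 pairs of CSD and VD pups of different mothers. Deviations of same-numbered pups correlated at -0.0492 to 0.215, and 2 of 5 matched best with their own number, so the replicate block was not used as a pairing, and it gave Pde7a 0.41 and Pde1b -0.20. Of 1993 results for single named genes under the alternatives, 1942 kept direction and side of the threshold or were uncalled throughout (137 of these with the other sign), 31 lost and 20 gained a call, and 0 called genes turned direction. Precision is limited by 2 litters per delivery mode, and the smallest exact permutation p over litter means cannot pass the threshold.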
